A study of Mus musculus with 6 samples.

Results

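Interferon-stimulated antiviral genes are the transcripts that cells raise when interferon reaches its receptor. They encode sensors of viral RNA and DNA, proteins that block viral translation or destroy viral RNA, and factors that carry the interferon signal itself. Type I interferon signals through a complex with STAT2 and IRF9, which binds a promoter element called the interferon-stimulated response element, and macrophages hold a low level of many of these transcripts without any added interferon. IL-4 signals through another factor, STAT6. The set described here has 40 genes, found by their symbols among the 25124 rows of a deposited expression table. They were grouped as sensors, IFIT proteins, oligoadenylate synthetases, STAT, the ISG15 system, PARPs, IFI200 proteins and other effectors.

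The cells were RAW264.7, a mouse macrophage-like line that comes from a tumour induced by Abelson leukemia virus. They were a control line that had received a Cas9 plasmid with no guide, made for comparison with an E4BP4 knockout, and both groups share this history. The M2 group was given IL-4 at 10 ng/ml and the M0 group was kept without IL-4, each with 3 poly(A) RNA libraries, in medium with 25 mM glucose and 10% serum. The duration of IL-4 treatment was not given in the sources used here, and no interferon or virus is named in the labels. No label says that the replicates were separate cultures. The p-values here weigh the difference between groups against the spread within them, and that spread is possibly technical alone. All M0 titles bear a note of re-analysis and no M2 title does, so an effect of IL-4 and one of whatever lies behind that note cannot be told apart.

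Levels are given as TPM, which scales the reads of a transcript for its length and for the depth of the library. The libraries were of like size, at 18139902 to 19511192 reads in M2 and 15615639 to 18110568 in M0 when TPM values were turned back into reads. All 8 macrophage markers examined passed the filter on low values, among them Csf1r, Cd68 and Adgre1, with a summed level of 2081 to 2180 TPM in M2 and 2230 to 2457 TPM in M0. The markers went both ways: Adgre1, Mertk and Fcgr1 rose (adjusted p = 0.000304, 5.37e-05 and 0.0146 by limma), Itgam fell (adjusted p = 0.0181), and Csf1r, Cd68, Spi1 and Lyz2 did not pass. The call of Fcgr1 ended without M2 replicate 1, M0 replicate 2 or M0 replicate 3, and that of Itgam without M0 replicate 1 or M0 replicate 2 (adjusted p up to 0.0658 for Fcgr1 and 0.0587 for Itgam). The part of these markers in the values below was not tested. In bulk RNA, fewer cells with a transcript and less of it per cell cannot be told apart. The 4 T cell, 4 fibroblast, 4 epithelial and 3 endothelial markers summed to at most 0.808 TPM per list in any M2 library and 1.04 TPM in any M0 library, with Cd3g, Cd8a and Krt8 at 0 in every library. Of 3 plasmacytoid dendritic cell markers, Bst2, which belongs to the set, and Tcf4 passed the filter. Tcf4 rose (28.6 TPM in M2 against 20.8 TPM in M0; adjusted p = 0.00135 by limma) while Bst2 fell, and the third marker, Siglech, averaged 0.0357 TPM in M2 and 0.0200 TPM in M0. Of 4 neutrophil markers S100a8 alone passed, with a sum of 4.12 to 5.71 TPM in M2 and 4.51 to 5.85 TPM in M0. M2 replicate 3 stood apart: the chi-square of its reads per degree of freedom was 18.5 and 18.6 against the other M2 libraries, and 2.13 to 5.50 between other libraries of a group. Deviations from the group mean followed transcript length in several libraries, with Spearman correlations over 11202 genes from -0.61 in M2 replicate 3 to 0.56 in M2 replicate 2.

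Of the 40 genes, 33 had at least 1 TPM in at least 3 libraries and were tested with limma on log2(TPM + 1) together with all other genes, 11202 in all. Of these 33, 32 had at least 1 TPM in all 6 libraries, and Oasl1 had it in 4. Most of the set was lower in IL-4-treated cells. At an adjusted p under 0.05, 21 of 33 fell and 2 rose, where 23.7% of all tested genes fell, 20.1% rose and 43.7% were called either way. The balance over all genes turned under median-ratio scaling, with 2500 lower and 2719 higher, where the set had 20 lower and 3 higher. The median log2 fold change, M2 over M0, was -0.37 over the 33 genes and -0.03 over all tested genes. The falls were moderate: among the 21, mean TPM was 16.9% to 54.1% lower in M2, and 1 gene, Dhx58, passed a fold of 2 on the log scale, as did 1.4% of all tested genes downward and 1.05% upward. For 22 of the 33 genes every M2 library lay below every M0 library, a pattern that 30.8% of all tested genes showed, and for 3 every M2 library lay above, as for 25.1% of all. The TPM of the 33 genes summed to 708, 686 and 677 in M2 replicates 1, 2 and 3, against 895, 861 and 905 in M0 replicates 1, 2 and 3. Much of each sum came from Ifi27l2a, Bst2 and Lgals3bp, the 3 genes that averaged over 50 TPM in M0. Without them the sums were 298, 318 and 285 in M2, against 362, 387 and 390 in M0, in the same order.

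**Figure D1:**
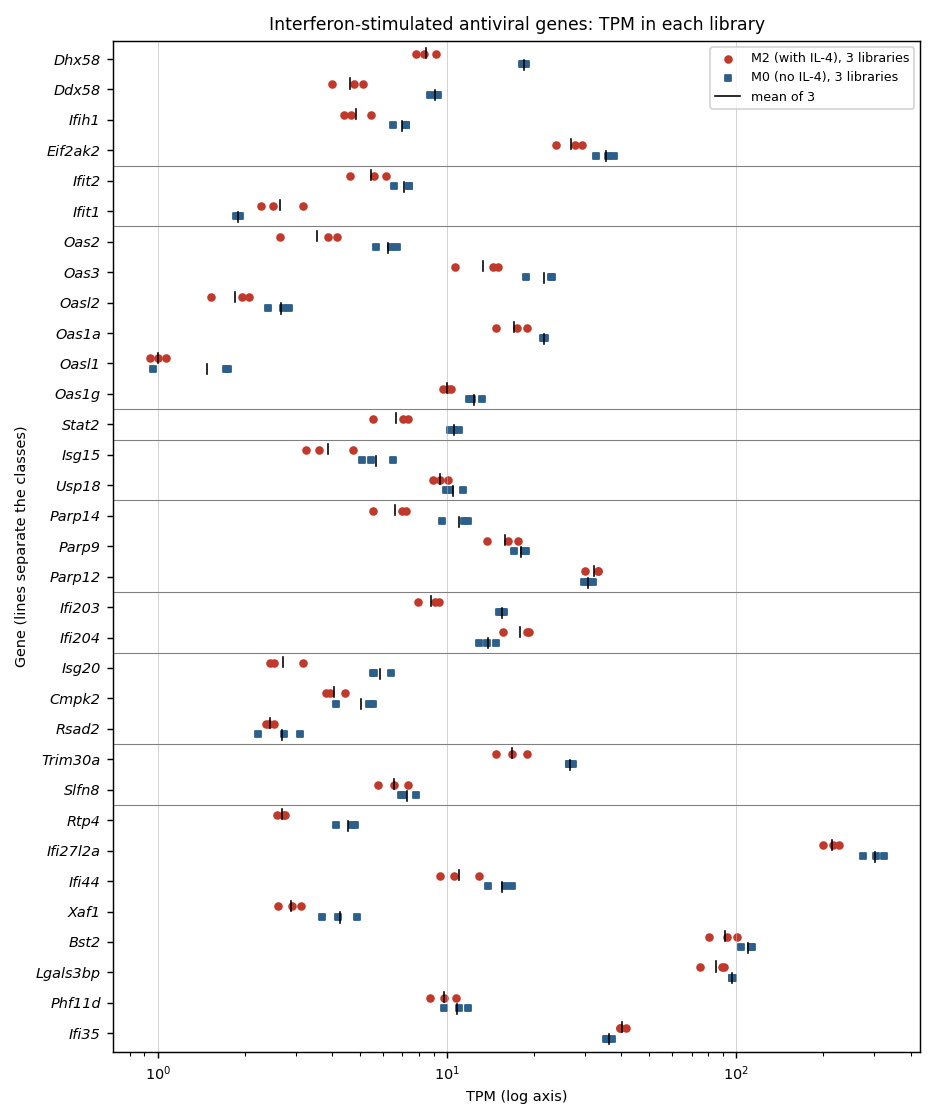
TPM (log axis) of the 33 tested genes in each of the 3 M2 libraries (red circles, upper row of each gene) and the 3 M0 libraries (blue squares, lower row), with the mean of each group as a black tick and lines between classes. Dhx58, Ddx58, Ifi203 and Isg20 separate widest, with M2 to the left, while Ifit1, Ifi204 and Ifi35 lie to the right in M2.

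The promoters of these genes show which of them carry the interferon response element as plain sequence. The element was searched on both strands as GAAA, 2 bases of any kind and GAAA again, in the window from 250 bases before to 50 after the start of the transcript model. Sequences are from RefSeq on GRCm38.p6, positions count from 1 at the first transcribed base, and bases before the start are negative. A promoter at the start of the model used in the expression table was found for 29 of the 40 genes. Of these, 18 held at least 1 match (62.1%), where 3.44% of all 32851 promoters in the table did. The 11 genes not matched were Dhx58, Zbp1, Oas2, Usp18, Parp9, Parp14, Ifi204, Mx1, Mx2, Ifi27l2a and Rtp4. A match is a stretch of letters and was not measured as a binding site.

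Ifit1, which rose, is the riser with a matched promoter, and Isg20 had the largest fall among the genes with one. The 180 bases before the start of Ifit1 (chr19:34640709-34640888, plus strand) are shown with both response element matches in capitals, at -104 to -95 and -85 to -76. The 210 bases before the start of Isg20 (chr7:78913214-78913423, plus strand) hold no such match. Their capitals mark instead TTC and GAA held apart by any 4 bases at -205 to -196, the spacing that STAT6 prefers, and by any 3 bases at -73 to -65, the spacing of other STAT factors. These patterns read the same on either strand and occur in 6.95% of all promoters with 4 bases between, and in 8.30% with 3. Of the 29 promoters of the set, 5 (17.2%) held each pattern. With 4 bases between, all 5 were of genes that fell, and with 3 bases between, 4 fell and 1 did not pass. The 5 with 4 bases between include Oas1a and Oas1g, close copies with the same matches. Of all 29 genes, 16 fell, 1 rose, 8 did not pass and 4 lay below the filter. Outside the set, 18.8% of tested genes with the 4-base pattern fell and 25.2% rose, against 23.6% and 20.2% of those without it. For the 3-base pattern the shares were 23.5% and 22.6% with it, against 23.3% and 20.3% without it. The part of either pattern in these values was not tested.
Ifit1: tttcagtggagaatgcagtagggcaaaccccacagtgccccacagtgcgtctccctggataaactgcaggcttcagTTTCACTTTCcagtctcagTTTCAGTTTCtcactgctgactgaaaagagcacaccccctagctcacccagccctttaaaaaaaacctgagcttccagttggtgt
Isg20: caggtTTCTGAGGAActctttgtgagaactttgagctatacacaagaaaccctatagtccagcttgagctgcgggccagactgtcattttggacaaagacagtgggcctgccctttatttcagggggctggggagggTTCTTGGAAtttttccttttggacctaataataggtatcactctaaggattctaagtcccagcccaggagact

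Windows of 30 bases around the response element matches are printed for some of the genes that fell. The search pattern itself sets how alike the capitals are, and Stat2 shares the match TTTCAGTTTC with Ifit1, which rose. Trim30a and Bst2 also fell with a match and are not printed. Windows are given for 3 RNA sensors, 3 oligoadenylate synthetases, Stat2, Isg15 and Ifi203, with the matches in capitals. The matches of the 3 sensors lie after the transcript start, at 3 to 12 (Ddx58), 19 to 28 (Eif2ak2) and 33 to 42 (Ifih1). Those of the other printed genes lie before it. Oas1a and Oas1g carry the same 30 bases, with 2 overlapping matches each, and Isg15 has 3 overlapping matches. The windows lie at chr4:40239804-40239833, minus strand (Ddx58), chr2:62646206-62646235, minus strand (Ifih1), chr17:78882535-78882564, minus strand (Eif2ak2), chr5:120907523-120907552, minus strand (Oas1a), chr5:120887609-120887638, minus strand (Oas1g), chr5:120777715-120777744, minus strand (Oas3), chr10:128270266-128270295, plus strand (Stat2), chr4:156200871-156200900, minus strand (Isg15) and chr1:173942508-173942537, minus strand (Ifi203).
Ddx58: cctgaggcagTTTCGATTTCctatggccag
Ifih1: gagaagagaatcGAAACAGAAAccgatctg
Eif2ak2: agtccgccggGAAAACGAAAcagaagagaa
Oas1a: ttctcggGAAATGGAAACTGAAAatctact
Oas1g: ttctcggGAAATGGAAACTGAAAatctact
Oas3: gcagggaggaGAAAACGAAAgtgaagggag
Stat2: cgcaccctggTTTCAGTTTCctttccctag
Isg15: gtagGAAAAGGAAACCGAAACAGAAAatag
Ifi203: aagagctgggGAAATCGAAAgctatgaaca

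The match was present in genes that fell, in the gene that rose and in genes that did not pass. Among genes with a matched promoter, 11 of 16 that fell held it, as did the 1 that rose, 2 of 8 that did not pass and 4 of 4 below the filter. Outside the set, 261 tested genes had a promoter with the match, of which 64 fell (24.5%) and 58 rose (22.2%), with a median log2 fold change of -0.02. Of 8074 tested genes outside the set whose promoter lacked it, 23.3% fell and 20.4% rose, with a median of -0.03.

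The RNA sensors that were tested fell, 4 of 4, where 23.7% of all tested genes fell. Dhx58 encodes LGP2, which modulates the other RIG-I-like receptors, and its model lies on mm10 at chromosome 11, 100694884 to 100704271, minus strand. Dhx58 had 9.15, 7.84 and 8.35 TPM in the M2 libraries, against 18.1, 18.4 and 18.7 TPM in the M0 libraries. The groups were far apart, and the ratio of means was 2.18-fold lower in M2 (log2 fold change -1.04, SE 0.077, adjusted p = 2.15e-05). Ddx58 encodes RIG-I, the sensor of short viral RNA with a triphosphate end, and had 5.11, 4.79 and 4.0 TPM in M2 replicates 1, 2 and 3, against 8.71, 9.30 and 9.23 TPM in M0 replicates 1, 2 and 3. All M2 values were lower, and M2 replicate 3 was the lowest (log2 fold change -0.84, SE 0.097, adjusted p = 0.000222; log2 fold change -0.76 without M2 replicate 3). Ifih1, which encodes MDA5, the sensor of long double-stranded RNA, had 4.40, 5.47 and 4.65 TPM in the M2 libraries, against 6.51, 7.2 and 7.19 TPM in the M0 libraries. It was 30.6% lower in M2 (log2 fold change -0.45, SE 0.098, adjusted p = 0.00581). Eif2ak2 encodes PKR, a kinase that stops translation when it binds double-stranded RNA, and was the most abundant sensor in TPM, with 27.6, 29.4 and 23.7 TPM in M2, against 32.7, 36.1 and 37.7 TPM in M0. The M2 values lay below all M0 values by a smaller margin (log2 fold change -0.39, SE 0.090, adjusted p = 0.00748; log2 fold change -0.31 without M2 replicate 3). All 4 calls held with each library left out in turn.

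The other 2 sensors lay below the filter. Ddx60, a helicase linked to RIG-I signalling, had 0.715, 0.915 and 0.840 TPM in the M2 libraries, against 0.939, 1.07 and 1.17 TPM in the M0 libraries, from 235 reads over the M2 libraries and 277 over the M0 libraries. Zbp1, the sensor of Z-form nucleic acid that can start necroptosis, had 30 reads over the M2 libraries and 18 over the M0 libraries, and its groups overlapped. Neither passed in the fit without a filter (adjusted p = 0.178 for Ddx60 and 0.471 for Zbp1 by limma).

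IFIT proteins bind viral RNA at the cap or end and keep it from being translated. They lie side by side on chromosome 19 and went in opposite directions. Ifit1, on mm10 at chromosome 19, 34640889 to 34650009, plus strand, had 2.5, 3.18 and 2.27 TPM in the M2 libraries, against 1.93, 1.90 and 1.86 TPM in the M0 libraries. The 3 M2 values lay above a tight M0 group, and the ratio of means was 1.39-fold (log2 fold change 0.32, SE 0.115, adjusted p = 0.0467). That call rested on 332 reads over the M2 libraries and 221 over the M0 libraries. It ended without M2 replicate 1, M2 replicate 2 or any of the 3 M0 replicates (adjusted p = 0.0743, 0.155, 0.0991, 0.110 and 0.120 in that order) and held without M2 replicate 3. Ifit2, at chromosome 19, 34551088 to 34576534, plus strand, had 5.58, 6.13 and 4.61 TPM in the M2 libraries, against 6.57, 7.40 and 7.37 TPM in the M0 libraries. Each M2 library was below each M0 library (log2 fold change -0.34, SE 0.108, adjusted p = 0.0322; log2 fold change -0.24 without M2 replicate 3). The Ifit2 call ended without M2 replicate 1, M0 replicate 2 or M0 replicate 3 (adjusted p = 0.0586, 0.106 and 0.107). The response element was not among the letters of the Ifit2 window.

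Ifit3 and Ifit3b, copies so alike that reads could be divided among them, were scarcely detected. Ifit3 had 51 reads over the M2 libraries and 47 over the M0 libraries, and Ifit3b had 8 reads over the M2 libraries and 5 over the M0 libraries. Their promoters carry 2 matches each in the same 64 bases, given here because both hold the response element while neither transcript reached 1 TPM in any library. The stretches are at chr19:34583363-34583426, plus strand and chr19:34607759-34607822, plus strand.
Ifit3: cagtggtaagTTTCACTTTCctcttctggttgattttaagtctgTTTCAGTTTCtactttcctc
Ifit3b: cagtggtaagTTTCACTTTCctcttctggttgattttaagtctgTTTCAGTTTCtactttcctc

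Oligoadenylate synthetases make a short nucleotide messenger in the presence of double-stranded RNA, which switches on RNase L. Of the 6 tested, all in a cluster or near it on chromosome 5, 5 fell, where 23.7% of all tested genes fell. Oas2 had 3.87, 4.16 and 2.64 TPM in the M2 libraries, against 5.67, 6.73 and 6.39 TPM in the M0 libraries, and M2 replicate 3 was the lowest of all (log2 fold change -0.69, SE 0.138, adjusted p = 0.00404). Without M2 replicate 3 its log2 fold change was -0.53. Oas3, the large form that senses long RNA, had 14.4, 15.0 and 10.6 TPM in the M2 libraries, against 18.8, 23.0 and 22.8 TPM in the M0 libraries. The groups did not overlap, although both spread widely (log2 fold change -0.66, SE 0.131, adjusted p = 0.00373; log2 fold change -0.51 without M2 replicate 3). Oas1a and Oas1g are close copies that share promoter letters, so reads could be divided among them. Oas1a averaged 17.1 ± 2.10 TPM in M2 and 21.7 ± 0.157 TPM in M0, and Oas1g averaged 10.0 ± 0.325 TPM in M2 and 12.4 ± 0.677 TPM in M0 (SD, n = 3 each). Both were lower in every M2 library than in any M0 library (log2 fold change -0.33 and -0.28; adjusted p = 0.0150 and 0.0145 by limma). Those calls ended without M0 replicate 2 (adjusted p = 0.0515 for Oas1a and 0.0783 for Oas1g), and that of Oas1a also without M0 replicate 3 (adjusted p = 0.0516).

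Oasl1 and Oasl2 are OAS-like proteins, and mouse OASL1 is known to hold back translation of Irf7. Oasl2 had 2.06, 1.95 and 1.52 TPM in the M2 libraries, against 2.72, 2.85 and 2.41 TPM in the M0 libraries (log2 fold change -0.37, SE 0.112, adjusted p = 0.0271). Its call ended without M0 replicate 1 or M0 replicate 2 (adjusted p = 0.0786 and 0.0970). Oasl1 had 1.07, 0.942 and 1.01 TPM in the M2 libraries, against 0.961, 1.72 and 1.75 TPM in the M0 libraries. M0 replicate 1 sat within the M2 range, and Oasl1 did not pass (adjusted p = 0.139 by limma). Without M0 replicate 1 its adjusted p was 0.0212.

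**Figure D2:**
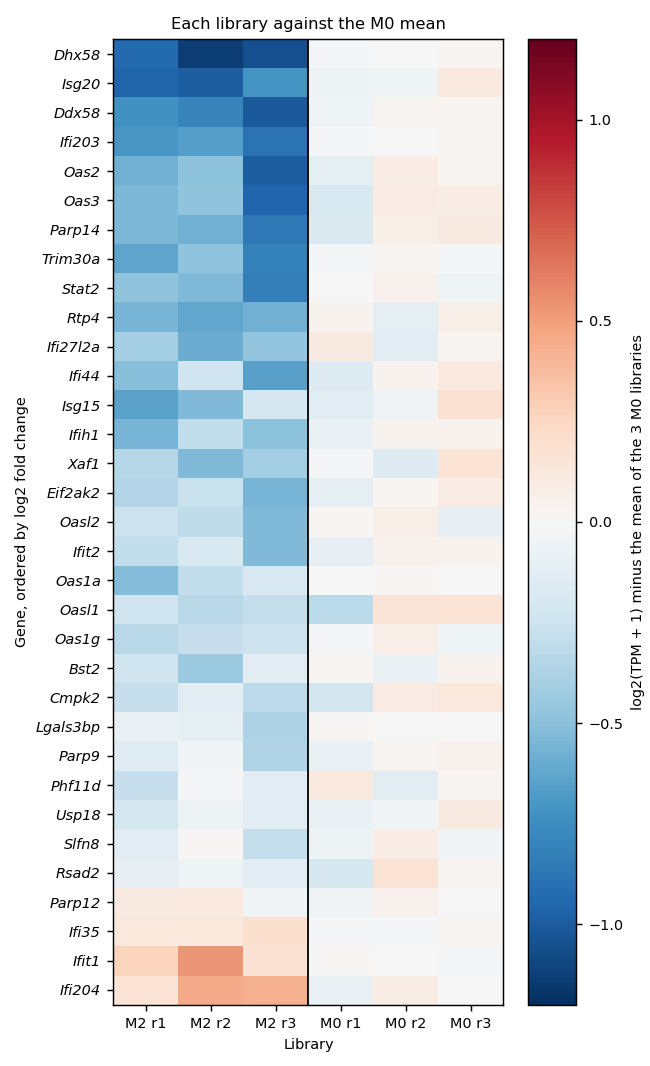
Each cell is log2(TPM + 1) of 1 gene in 1 library minus the mean of the 3 M0 libraries for that gene, with the 3 M2 libraries left of the 3 M0 libraries and genes ordered by log2 fold change. Most rows are blue (lower) in all M2 libraries and near white in M0, Ifit1 and Ifi204 at the bottom are red (higher), and Oas2, Oas3 and Parp14 are darkest in M2 replicate 3.

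Stat2, a transcription factor of the interferon receptors, had 7.30, 7.04 and 5.57 TPM in the M2 libraries, against 10.6, 11 and 10.2 TPM in the M0 libraries. It was 37.4% lower in M2, and every M2 library lay below every M0 library (log2 fold change -0.61, SE 0.103, adjusted p = 0.00164; log2 fold change -0.51 without M2 replicate 3). The Stat2 model overlaps that of Apof by 752 bases on the same strand, and Apof averaged 0.424 TPM in M2 and 0.801 TPM in M0. Isg15 encodes a ubiquitin-like protein that is attached to other proteins during antiviral responses. It had 3.26, 3.62 and 4.74 TPM in the M2 libraries, against 5.07, 5.44 and 6.52 TPM in the M0 libraries, from 141 reads over the M2 libraries and 187 over the M0 libraries (log2 fold change -0.46, SE 0.134, adjusted p = 0.0216). That call ended without M2 replicate 1, M2 replicate 2 or M0 replicate 3 (adjusted p = 0.0708, 0.0582 and 0.0896). It also missed the threshold in the authors' deposited table (adjusted p = 0.149). Usp18, the protease that removes ISG15 and also damps the interferon receptor, averaged 9.48 ± 0.55 TPM in M2 and 10.5 ± 0.772 TPM in M0 (SD, n = 3 each). Its groups overlapped and it did not pass (adjusted p = 0.226 by limma).

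Of the PARPs, enzymes that attach ADP-ribose to proteins, 1 of 3 fell, where 23.7% of all tested genes fell. Parp14, a large member that has also been described as a cofactor of STAT6, had 7.2, 7.01 and 5.56 TPM in the M2 libraries, against 9.58, 11.5 and 11.8 TPM in the M0 libraries. It was 39.9% lower in M2 with no overlap (log2 fold change -0.66, SE 0.115, adjusted p = 0.00196; log2 fold change -0.56 without M2 replicate 3). At 7232 bases its model is the longest in the set, where the median over the 33 tested genes was 2849 bases. Parp9, which acts with the ubiquitin ligase DTX3L, averaged 15.9 ± 1.96 TPM in M2 and 18.1 ± 0.871 TPM in M0 (SD, n = 3 each), and Parp12, which blocks translation of viral RNA, averaged 32.2 ± 1.91 TPM in M2 and 30.8 ± 0.996 TPM in M0. Neither passed (adjusted p = 0.153 and 0.472 by limma). Parp9 and Dtx3l overlap by 557 bases on opposite strands, and Dtx3l averaged 6.31 TPM in M2 and 7.40 TPM in M0.

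The IFI200 proteins sense nuclear or cytosolic DNA, or regulate transcription, and their genes are clustered on chromosome 1 with many close copies, so reads may be shared between them. The 2 in the set moved in opposite directions. Ifi203, on mm10 at chromosome 1, 173920401 to 173942492, minus strand, had 9.12, 9.39 and 7.92 TPM in the M2 libraries, against 15.2, 15.5 and 15.8 TPM in the M0 libraries. It was 43.1% lower in M2, with groups far apart (log2 fold change -0.75, SE 0.082, adjusted p = 0.000170). Ifi204, at chromosome 1, 173747294 to 173766919, minus strand, had 15.6, 19.3 and 18.9 TPM in the M2 libraries, against 12.9, 14.8 and 13.7 TPM in the M0 libraries. Each M2 value exceeded each M0 value (log2 fold change 0.35, SE 0.095, adjusted p = 0.0159). The Ifi204 call ended without M2 replicate 2, M0 replicate 1 or M0 replicate 3 (adjusted p = 0.0526, 0.0636 and 0.0546). Other genes of this cluster outside the set, Mndal and Ifi207, averaged 12.4 against 24.9 TPM and 31.2 against 50.2 TPM in M2 against M0, and both fell (adjusted p = 2.14e-05 and 0.00219 by limma).

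Among the effectors that act on nucleic acid and nucleotides, Isg20 fell. Isg20, an exonuclease that degrades viral RNA, lies on mm10 at chromosome 7, 78913424 to 78920396, plus strand and had 2.52, 2.44 and 3.17 TPM in the M2 libraries, against 5.55, 5.61 and 6.42 TPM in the M0 libraries. Its mean was 53.7% lower in M2 (log2 fold change -0.89, SE 0.109, adjusted p = 0.000299), on 114 reads over the M2 libraries and 224 over the M0 libraries. Rsad2 encodes viperin, which makes a chain-terminating nucleotide, and Cmpk2 encodes the nucleotide kinase beside it. Rsad2 averaged 2.44 ± 0.0874 TPM in M2 and 2.69 ± 0.447 TPM in M0, and Cmpk2 averaged 4.07 ± 0.333 TPM in M2 and 5.03 ± 0.777 TPM in M0 (SD, n = 3 each). The groups overlapped for both genes, and neither passed (adjusted p = 0.523 and 0.122 by limma). Without M0 replicate 1 Cmpk2 passed (adjusted p = 0.0397).

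The MX genes, whose products are GTPases that trap viral particles, lay below the filter. Mx1, which is defective in many inbred mouse strains, had 28 reads over the M2 libraries and 22 over the M0 libraries, and its groups overlapped. Mx2 had 0.268, 0.441 and 0.358 TPM in the M2 libraries, against 0.791, 0.850 and 1.25 TPM in the M0 libraries, from 41 reads over the M2 libraries and 101 over the M0 libraries. All its M2 values were lower, with an adjusted p of 0.0124 in the limma fit without a filter and of 0.00400 in the authors' deposited table.

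Of Schlafen and TRIM genes, Trim30a, a mouse antiviral and NF-kappaB-restraining protein, had 16.8, 18.8 and 14.8 TPM in the M2 libraries, against 26.4, 27.3 and 26.3 TPM in the M0 libraries. M2 was lower without overlap (log2 fold change -0.64, SE 0.088, adjusted p = 0.000528). Slfn8 averaged 6.55 ± 0.783 TPM in M2 and 7.26 ± 0.477 TPM in M0 (SD, n = 3 each) and did not pass (adjusted p = 0.307 by limma), and Slfn5 was below the filter with 52 reads over the M2 libraries and 65 over the M0 libraries.

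Of the other 8 genes, 5 fell, where 23.7% of all tested genes fell, and the remaining 3, Ifi35, Lgals3bp and Phf11d, did not pass. The most abundant of the whole set was Ifi27l2a, which encodes a small protein, with 226, 199 and 216 TPM in the M2 libraries, against 323, 273 and 304 TPM in the M0 libraries. It fell with no overlap (log2 fold change -0.49, SE 0.076, adjusted p = 0.00107). Rtp4, a chaperone of receptors that limits type I interferon responses in mice, had 2.75, 2.58 and 2.71 TPM in the M2 libraries, against 4.70, 4.12 and 4.81 TPM in the M0 libraries (log2 fold change -0.59, SE 0.094, adjusted p = 0.00121). Xaf1, which promotes cell death, averaged 2.89 ± 0.262 TPM in M2 and 4.25 ± 0.589 TPM in M0, and Ifi44 averaged 11 ± 1.77 TPM in M2 and 15.5 ± 1.52 TPM in M0 (SD, n = 3 each). Both fell (adjusted p = 0.0134 and 0.0115 by limma), and both calls ended without M0 replicate 3 (adjusted p = 0.0612 and 0.0525).

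Bst2 encodes tetherin, which holds budding virus at the cell surface, and had 93.0, 80.4 and 101 TPM in the M2 libraries, against 113, 104 and 114 TPM in the M0 libraries. The lowest M0 library was close to the highest M2 library (log2 fold change -0.27, SE 0.083, adjusted p = 0.0279). The Bst2 call ended without M2 replicate 2, M0 replicate 1 or M0 replicate 3 (adjusted p = 0.0680, 0.0863 and 0.0971), among other settings with median-ratio scaling (adjusted p = 0.105), and in the authors' deposited table (adjusted p = 0.0958). Lgals3bp, a secreted glycoprotein, averaged 85.1 ± 8.81 TPM in M2 and 96.9 ± 0.562 TPM in M0 (SD, n = 3 each; adjusted p = 0.0693 by limma, and 0.0454 without M2 replicate 1). Phf11d averaged 9.74 ± 0.988 TPM in M2 and 10.8 ± 1.06 TPM in M0 and did not pass (adjusted p = 0.279 by limma). Ifi35 had 39.7, 39.6 and 41.6 TPM in the M2 libraries, against 35.5, 35.9 and 37.1 TPM in the M0 libraries. It was higher in all 3 M2 libraries than in any M0 library and just missed the threshold (log2 fold change 0.15, SE 0.056, adjusted p = 0.0547), and it passed with median-ratio scaling (adjusted p = 0.0355).

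**Figure D3:**
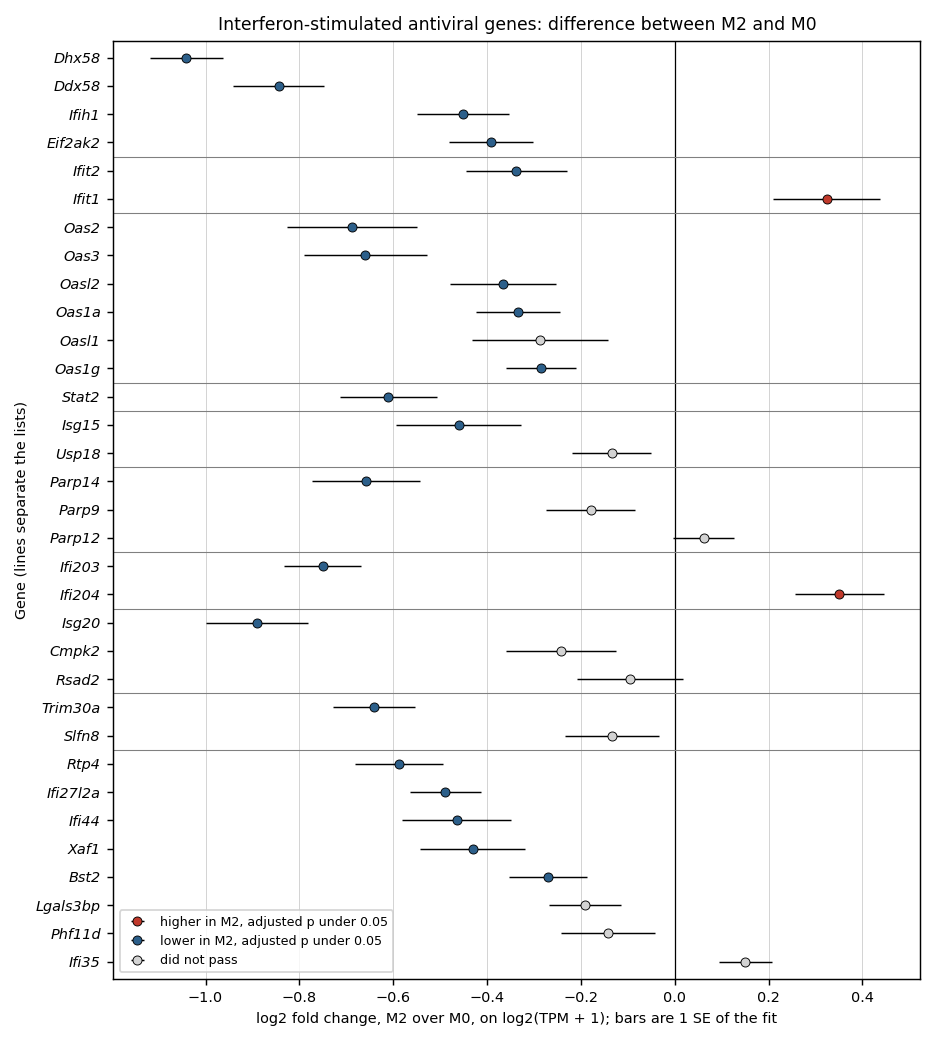
Log2 fold change, M2 over M0, with 1 SE of the limma fit on log2(TPM + 1) for the 33 tested genes, in the same classes. Blue points (21) fell, red points (2) rose and grey points (10) did not pass at an adjusted p under 0.05, and the lowest is Dhx58 at -1.04.

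Among replicates, the genes of the set shared part of their variation with all other genes. M2 replicate 3 was the lowest M2 library for 18 of the 33 genes (54.5%) and for 59.0% of all tested genes. M0 replicate 1 was the lowest M0 library for 22 of the 33 (66.7%) and for 49.6% of all tested genes. The median coefficient of variation of TPM was 11.4% in M2 and 6.66% in M0 for the set, against 8.95% in M2 and 5.46% in M0 over all tested genes. Without M2 replicate 3, 21 of the 33 genes fell and 2 rose, as with it. The log2 fold change moved by over 1.5 times for 4 genes, which did not pass with or without it: it was -0.09 without M2 replicate 3 for Parp9, -0.06 for Slfn8, -0.10 for Lgals3bp and 0.11 for Parp12, against -0.18, -0.13, -0.19 and 0.06 with it. Without M0 replicate 3, 15 fell and neither Ifit1 nor Ifi204 passed, the lowest count over the 6 libraries left out in turn. By an adjusted p under 0.05 in the authors' deposited table, 19 of the 33 were lower and 2 higher in M2. Of all 24421 genes in that table, 2440 were lower and 2607 higher. The filter used here for the 33 was not applied to those 24421, so the counts are over unlike sets.

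**Figure D4:**
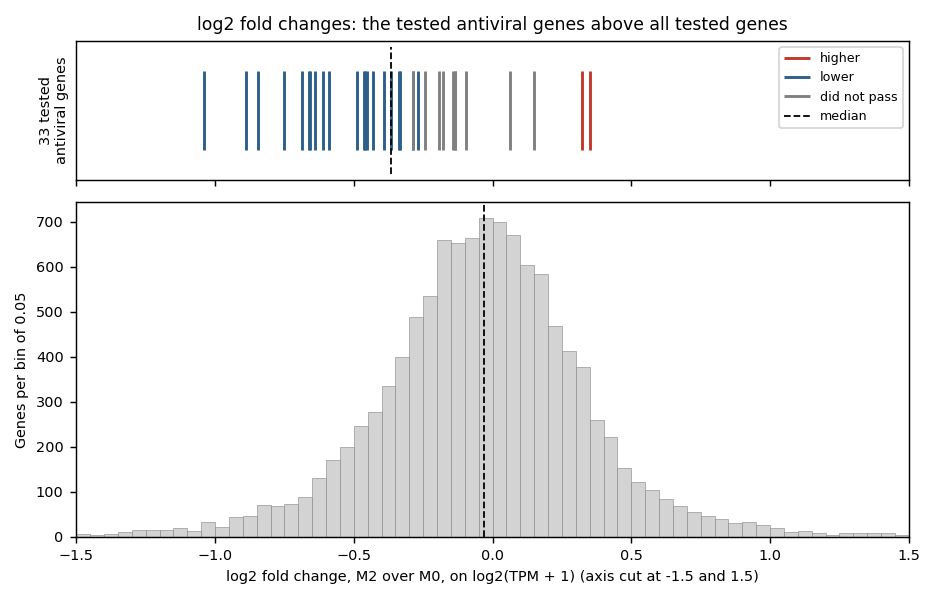
The upper strip marks the log2 fold change of each of the 33 tested antiviral genes (blue fell, red rose, grey did not pass), and the lower panel counts all tested genes in bins of 0.05, leaving out 65 genes beyond -1.5 and 1.5. Dashed lines are the medians, -0.37 above and -0.03 below.

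The interferon genes themselves were all but silent. Of 11 interferon ligand genes listed, none passed the filter and 6 had no read in any library, where a count of 0 allows up to 3 reads. Together the 11 had 5 reads over the M2 libraries and 5 over the M0 libraries, and Ifnb1, the first interferon that macrophages make after infection, was among the 11. Several alpha interferon genes are near-identical, so reads may be missing from them.

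Of 8 tested genes for interferon receptors and their kinases, 3 rose and 1 fell, where 20.1% of all tested genes rose and 23.7% fell. Ifnar1 and Ifnar2, the chains of the type I receptor, averaged 16.4 against 18.3 TPM and 83.4 against 81.0 TPM in M2 against M0, and neither passed (adjusted p = 0.136 and 0.521 by limma). Tyk2, the kinase bound to IFNAR1, fell, with 11.8, 11.1 and 8.52 TPM in the M2 libraries, against 14.7, 17 and 15.9 TPM in the M0 libraries (log2 fold change -0.57, SE 0.115, adjusted p = 0.00421). Jak2, which serves the receptor of type II interferon, Ifngr2, a chain of that receptor, and Il10rb, a chain shared by the receptors of IL-10 and lambda interferon, rose to 33.8, 63.0 and 77.2 TPM in M2, against 11.7, 49.7 and 61.1 TPM in M0 (adjusted p = 1.15e-05, 0.000948 and 0.00233 by limma).

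Among the interferon regulatory factors, 3 of 7 tested rose and 3 fell, where 20.1% of all tested genes rose and 23.7% fell. Irf9, the DNA-binding partner of STAT2, had 14.7, 13.6 and 13.4 TPM in the M2 libraries, against 20.7, 22.3 and 19.9 TPM in the M0 libraries. It fell, as Stat2 did (log2 fold change -0.56, SE 0.073, adjusted p = 0.000420). Irf8, a myeloid lineage factor, fell (72.2 against 115 TPM in M2 against M0; adjusted p = 4.67e-05 by limma). Irf1 also fell (16.9 against 20.5 TPM in M2 against M0; adjusted p = 0.0159 by limma), a call that ended without M0 replicate 1 or M0 replicate 3 (adjusted p = 0.0624 and 0.0584). Irf7, the factor that amplifies alpha interferon and is itself interferon-stimulated, rose, with 20.6, 19.5 and 17.9 TPM in the M2 libraries, against 11.7, 13.6 and 13.7 TPM in the M0 libraries (log2 fold change 0.54, SE 0.086, adjusted p = 0.00125). Irf5, which acts downstream of Toll-like receptors, and Irf2, which competes with IRF1, rose as well (log2 fold change 0.36 and 0.41; adjusted p = 0.00104 and 0.00193 by limma). Irf3, the kinase target that starts interferon transcription, did not pass (adjusted p = 0.186 by limma). Stat6, the factor of the IL-4 receptor, fell (52.2 against 65.5 TPM in M2 against M0; adjusted p = 0.0168 by limma), a call that ended without M0 replicate 1 or M0 replicate 2 (adjusted p = 0.0516 and 0.0644).

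Of 15 adaptors and kinases that link the sensors to interferon production, 7 fell and 2 rose. Over all tested genes, 23.7% fell and 20.1% rose. Ikbke, an IRF3 kinase, averaged 26.2 ± 2.58 TPM in M2 and 48.9 ± 2.18 TPM in M0 and its relative Tbk1 averaged 32.3 ± 3.04 TPM in M2 and 44.2 ± 1.97 TPM in M0 (SD, n = 3 each; adjusted p = 5.75e-05 and 0.00182 by limma). Ticam1, the TLR3 adaptor TRIF, had 7.19, 7.05 and 6.04 TPM in the M2 libraries, against 12.7, 13.7 and 12.5 TPM in the M0 libraries (log2 fold change -0.85, SE 0.088, adjusted p = 0.000128). Trim25, the ligase that activates RIG-I, fell to 36 TPM in M2, against 57.6 TPM in M0, and Unc93b1, which carries nucleic acid-sensing Toll-like receptors to endosomes, to 107 TPM in M2, against 141 TPM in M0 (adjusted p = 0.000719 and 0.000321 by limma). Cgas, the DNA sensor that makes the messenger for STING, rose, with 32.3, 33.3 and 28.5 TPM in the M2 libraries, against 23.2, 23.5 and 23.6 TPM in the M0 libraries (log2 fold change 0.40, SE 0.072, adjusted p = 0.00213). Tmem173, which encodes STING, fell (23.4 against 27.9 TPM in M2 against M0; adjusted p = 0.0129 by limma), a call that ended without M0 replicate 2 (adjusted p = 0.0557). Mavs, the mitochondrial adaptor of RIG-I and MDA5, averaged 23.1 ± 2.13 TPM in M2 and 25.4 ± 0.458 TPM in M0 and did not pass (adjusted p = 0.192 by limma). Rnf135, another ligase of RIG-I, rose and Myd88 fell, with calls that ended without 4 and 5 of the single libraries, M0 replicates 1 and 3 among them for both (adjusted p = 0.0729 and 0.0799 for Rnf135, 0.0548 and 0.153 for Myd88).

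Negative regulators went both ways, with 3 of 8 higher and 2 lower, where 20.1% of all tested genes rose and 23.7% fell. Socs1, which blocks the kinases of interferon and IL-4 receptors, rose, with 46.3, 44.0 and 48.9 TPM in the M2 libraries, against 0.889, 1.25 and 1.12 TPM in the M0 libraries (log2 fold change 4.51, SE 0.092, adjusted p = 4.29e-08). Ptpn6, the phosphatase SHP-1, and Nlrx1, a mitochondrial protein that restrains MAVS, fell (149.6 against 263 TPM and 5.24 against 7.23 TPM in M2 against M0; adjusted p = 1.17e-05 and 0.00750 by limma). Socs3 and Ptpn2 rose in smaller steps (log2 fold change 0.34 and 0.28), and both calls ended without any of the 3 M0 replicates (adjusted p up to 0.117 and 0.0797), that of Socs3 also without M2 replicate 1.

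**Figure D5:**
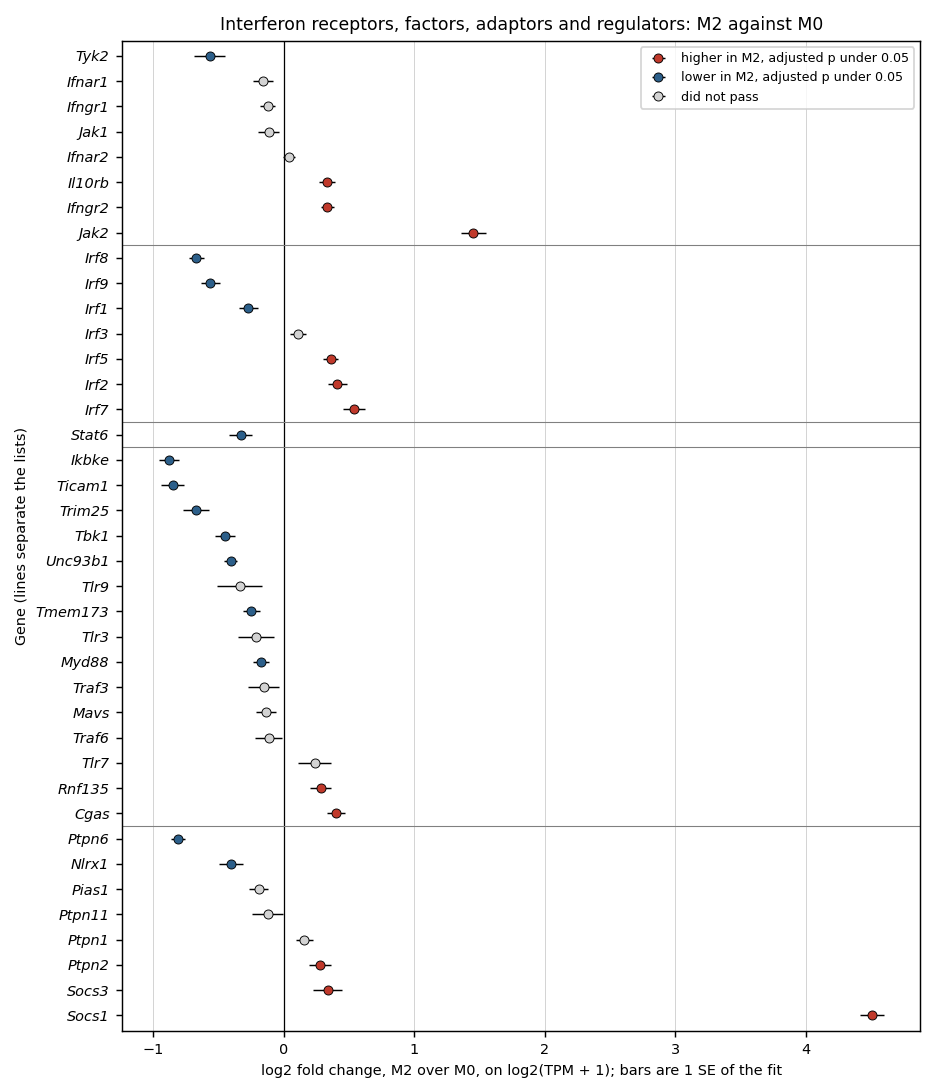
Log2 fold change, M2 over M0, with 1 SE of the limma fit for receptors and kinases, interferon regulatory factors, Stat6, adaptors, and negative regulators, from top to bottom. Socs1 stands alone at 4.51 and Jak2 at 1.45, while Ikbke and Ticam1 are the lowest at -0.88 and -0.85.

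A further 39 interferon-stimulated genes outside the set gave 37 tested, of which 25 fell and 2 rose, with a median log2 fold change of -0.35, where 23.7% of all tested genes fell and 20.1% rose with a median of -0.03. This list was chosen with earlier results of these data known. Ifi47, a GTPase of vacuole defence, had 1.42, 1.70 and 1.6 TPM in the M2 libraries, against 7.0, 5.59 and 5.91 TPM in the M0 libraries (log2 fold change -1.48, SE 0.107, adjusted p = 1.99e-05). Trafd1, a feedback inhibitor of innate signalling, averaged 7.90 ± 0.567 TPM in M2 and 18.2 ± 0.221 TPM in M0, and Sp100, a nuclear body protein, averaged 14 ± 0.542 TPM in M2 and 26.3 ± 1.31 TPM in M0 (SD, n = 3 each; adjusted p = 1.47e-05 and 3.05e-05 by limma). The 2 that rose were Gbp3, a guanylate-binding protein, and Pnpt1, a mitochondrial RNase (4.14 against 3.19 TPM and 52.1 against 43.6 TPM in M2 against M0; adjusted p = 0.0251 and 0.0259 by limma). Both calls ended without M2 replicate 1 or 2 or any of the 3 M0 replicates (adjusted p up to 0.0895 and 0.0930).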

How the data were processed

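Poly(A) RNA of 3 M2 and 3 M0 libraries, from 200 ng of total RNA each, was sequenced, per the labels' protocols. STAR 2.7.5a, HOMER 4.11.1, bcl2fastq, DESeq2 and the mm10 build appear in the submitters' processing notes with no step for each. Annotation and strand setting were not given in the sources used here. The authors deposited TPM values per library, and a second table whose library columns look like log2 values by their range. In that deposited table there are also a log2 fold change, positive where M2 is higher, a p-value and its adjusted form.

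The 11202 genes that reached 1 TPM in 3 or more libraries were fitted with limma 3.58.1 (R 4.3.3) on log2(TPM + 1), by group alone, two-sided, with a variance trend and Benjamini-Hochberg adjustment over all of them. This scale understates the change of low genes. The files used here hold no column of counts, so the count model planned for that case was not run. TPM times model length came in whole steps in each library, which gave the reads quoted: of values fine enough to tell, 100.0% lay within 0.1 of a whole read, against 20.0% by chance. Libraries of 1 group differed beyond sampling noise (chi-square per degree of freedom of reads of 2.13 or more). Python 3.11.15 with numpy 2.4.6, pandas 2.3.3 and matplotlib 3.10.9 prepared tables and plots. The fit was also run on simulated reads with the same spread setting for every gene and no trend with length. That run does not measure its errors under the spread of these libraries.

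The 40 genes, the pathway lists, the rule for named genes (all 40, plus in each pathway list the 4 lowest adjusted p and those that complete small counts) and the promoter search were chosen with earlier results of these data known. Genes named beyond that rule for their known role (such as Ifnar1 and Mavs) and the promoter windows beyond the largest rises, the largest falls, IFIT genes and sensors (Oas1a, Oas1g, Oas3, Stat2 and Isg15) were chosen after their values were seen. Sting1 was matched as Tmem173.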

Additional observations from a re-analysis of the deposited data

How the results depend on the processing

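Over 15 alternatives to the fit, the 21 genes that fell kept a negative log2 fold change in each where they were tested, and 13 of them stayed called in each. Counts of genes of the set called lower ranged from 15 to 21, apart from the count at 2-fold. All 6 single libraries left out in turn gave 15 to 23 calls in the set, 0 to 2 of them higher in M2, and a median log2 fold change of -0.43 to -0.33. One gene of the set was called higher with a pseudocount of 0.1, with a filter of 5 TPM and with the replicate block (1 in each case; Ifit1 at an adjusted p of 0.0522 and 0.0581 in the fits with the pseudocount and the block). The set's median log2 fold change moved to -0.48 under limma-voom of the recovered reads (-0.45 if scaled by upper quartile) and to -0.47 under that pseudocount. It was -0.23 from the authors' log2-scale values, or -0.26 there without M2 replicate 3, an alternative chosen after seeing the data. The cause of these shifts was not tested. A call that also asked for 2-fold left 275 of all genes (118 higher, 157 lower) and 1 of the set (0 higher, 1 lower), by its construction. No label says that replicate numbers pair the samples. Same-numbered libraries of both groups deviated with correlations of -0.03, 0.21 and 0.03, and differently numbered ones with -0.20 to 0.17. These values cannot show whether samples were paired. With the replicate block 4870 of all genes were called, and the set gave 21 lower. Scaling moved the median of all tested genes by less than 0.1, but the balance of calls turned. It was 2719 higher and 2500 lower under median-ratio scaling, and 2643 higher and 2519 lower on the authors' log2-scale values. With M2 replicate 3 left out and no rescaling, it also turned, to 2869 higher and 2825 lower. Of the values of single genes under an alternative, 446 stayed on their side of the threshold, 36 lost and 6 gained a call. The 7 genes below the filter had 5 to 277 reads per group of libraries, and the filter is a TPM level, so reads alone do not set who passes it.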
